A study of Homo sapiens with 22 samples.

Results

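Between D11 and D15 of the reprogramming of human fibroblasts with RNA, a minority of cells had a very high level of type I collagen. These collagen-high cells were taken from the D11, D13 and D15 libraries as kept cells (at least 1000 genes detected and at most 10% of UMIs, the unique molecular identifiers that count RNA molecules, on mitochondrial genes) chosen by COL1A1 at 1000 CPM (UMIs of the gene scaled to 1000000 UMIs of the cell) or more and CER1 below 200 CPM. They numbered 2668 of the 14332 kept cells of these days (18.6%) and of 41975 kept cells in the series. They were set against 6323 POU5F1-high cells of the same libraries, with POU5F1 at 500 CPM or more and COL1A1 below 200 CPM, and 5341 cells of D11 to D15 fell in neither class. Because COL1A1, CER1 and POU5F1 chose the cells, their levels are given as a description and without a test, and the same holds for every gene in the contrast of both classes.

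The cells were BJ fibroblasts, an established line from newborn foreskin. They were grown in microfluidic channels at 5% oxygen and received 8 daily transfections of messenger RNA for POU5F1, SOX2, KLF4, MYC, LIN28 and NANOG on days 1 to 8 in Pluriton medium, and from day 9 they were kept in the pluripotent stem cell medium iPSBrew. D0 cells are the fibroblasts before any transfection, and cells of D9 to D15 had all received the same RNA. Each day has 2 pools, A and B, each made from the cells of 4 chips, so that n = 2 per day and 6 pools cover D11 to D15, and pool B of D11 was captured as 2 aliquots that were added together. The pools are the replicates, cells are not, and spread between chips within a pool cannot be seen. Before reprogramming the fibroblasts were cultured in DMEM with fetal bovine serum. Time, transfection and the change of medium cannot be told apart in any comparison with D0. Time, the end of transfection and the change of medium cannot be told apart between D9 and D11.

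Fibroblasts make the fibrous matrix of connective tissue. Under TGF-beta or activin and under mechanical tension they can turn on the contractile genes of smooth muscle, with alpha smooth muscle actin (ACTA2) as the usual marker, and are then called myofibroblasts. In reprogramming cultures, cells that do not become pluripotent remain beside the colonies and release matrix proteins, growth factors and cytokines.

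Markers that the rule did not use are given as a description of the collagen-high cells. The fibroblast transcription factor PRRX1 was found at 98.3 ± 20.3 CPM (mean ± SD over 6 pools) against 1.91 in POU5F1-high cells, and the type I collagen partner chain COL1A2 at 2480 ± 520 against 87.1. Neither is an independent check of identity. COL1A2 followed COL1A1 from cell to cell (median rank correlation 0.782). PRRX1 was among the largest differences of the contrast that chose the cells, and was not higher than on D0 (log2 fold change -0.52). ACTA2 and TAGLN, markers of contractile cells, were higher than in POU5F1-high cells in 6 of 6 pools, as were 34.4% of the 13865 genes compared (39.9% were lower in 6 of 6), which follows in part from the choice of cells. RNA typical of pluripotent cells was nevertheless counted in them, and whether it came from other cells or from their own genes was not tested. POU5F1 itself had a median of 200, 36.2, 28.7, 212, 62.8 and 168 CPM per member cell in pools A and B of D11, D13 and D15, in that order, which is also the order used for all lists of 6 pools below. Over 21 pluripotency genes, the level in collagen-high cells had a median of 19.1%, 5.42%, 2.85%, 28.0%, 6.56% and 14.7% of that in the POU5F1-high cells of the same pool. In the reverse direction, 15 collagen genes had in POU5F1-high cells 10.97%, 4.05%, 2.05%, 7.11%, 1.72% and 2.79% of their level in collagen-high cells. The 21 genes include POU5F1 and the 15 include COL1A1, which chose the cells, so these medians are not free of the rule. Pool A of D11 and pool B of D13 stood highest in both directions, and the counts for gene groups below are also given without these pools. Leaving them out leaves 1 pool each on D11 and D13. The spread between pools of a day then comes from D0, D9 and D15 only. Larger counts without these pools are therefore no firmer than those of the main fit. Of the members, 55 also had POU5F1 at 500 CPM or more and 319 (11.96%) had no POU5F1 UMI. A doublet score called 116 of the 14332 cells (0.809%), 43 of them members, and 91 of 14239 distinct barcodes occurred in more than 1 of the 7 libraries of D11 to D15. A further 8 cells reached 1000 CPM of COL1A1 but carried 200 CPM or more of CER1 and were left out.

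**Figure D1:**
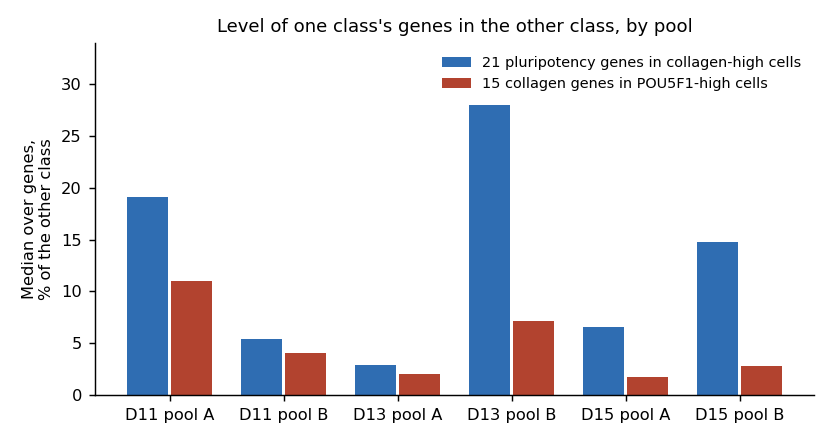
RNA typical of one class counted in cells of the other class, for each pool of D11 to D15. Bars give the median over genes of the level as a percentage of that in the other class of the same pool; pool A of D11 and pool B of D13 are the highest for both gene groups, at 19.1% and 28.0% for the pluripotency genes.

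The share of collagen-high cells was largest on D11 and smallest on D15. They made up 27.9% of the kept cells in pool A and 26.3% in pool B of D11, 22.4% and 12.2% on D13, and 5.08% and 7.21% on D15 (exact 95% intervals 3.43 to 7.21% and 6.14 to 8.40% on D15, which cover counting error only). Pool A of D15 held only 29 of these cells. The same rule took 16.6% and 29.2% of the D0 fibroblasts, 53.9% and 26.6% on D5 and 16.4% and 11.1% on D9, and 15.9% and 47.4% on D7. The exact intervals of pools A and B did not overlap on D0, D3, D5, D7, D9 and D13 (20.26 to 24.74% and 11.25 to 13.29% on D13), so pools of a day differed by more than counting error on 6 of the 8 days. With a stricter cell filter (2000 genes or more, mitochondrial UMIs up to 5%) the intervals were apart on 4 days, the share in pool B of D13 was 22.35% beside 23.08% in pool A, and the shares on D15 were 11.31% and 15.41%. The share is a readout of the rule, and fewer cells and less COL1A1 per cell cannot be told apart in it.

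**Figure D2:**
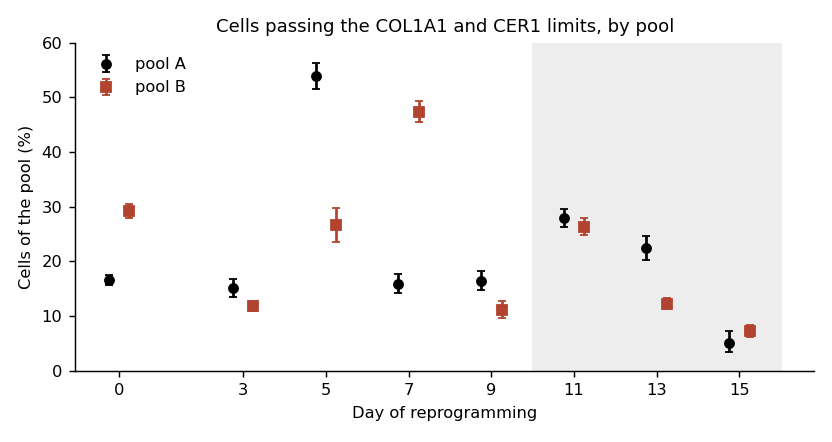
Percentage of kept cells that passed the COL1A1 and CER1 limits in each pool (circles, pool A; squares, pool B) from D0 to D15, with exact 95% binomial intervals. The shaded days hold the collagen-high cells described here, whose share was 27.9% and 26.3% on D11 and 5.08% and 7.21% on D15.

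The main test compared the 6 pools of collagen-high cells of D11 to D15 with the 2 pools of D0 fibroblasts taken by the same rule (2370 of 10776 kept cells), and asks how these cells differ from the collagen-expressing cells the cultures started with. COL1A1, which no test used, had a summed level of 1324 and 1344 CPM on D0, 3556 and 4114 on D9, and 3803, 5396, 7611, 4871, 7030 and 6322 in the late pools, so the late cells lay far deeper within the limit than the D0 cells. Of 13086 genes tested with edgeR's quasi-likelihood test, 30.8% passed the threshold (change beyond 0.25 on the log2 scale at a Benjamini-Hochberg adjusted p of less than 0.01), 2060 higher and 1967 lower. Counts for gene groups are given against this background of 15.7% higher and 15% lower, and the median log2 fold change over all genes tested was 0.01. The share that passed was 53.2% without pool A of D11 and pool B of D13, 20.1% with the limit for COL1A1 at 2000 CPM in all groups, and 29.3% against all D0 cells.

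Collagens other than COL1A1 were mostly higher than on D0. Of 18 fibrillar and network collagen genes, 12 rose and none fell, with a median log2 fold change of 1.71, and without the 2 pools named above 14 rose and none fell. With COL1A1 at 2000 CPM 9 rose and 1 fell, with a median of 0.97. The largest rise was that of COL4A1, a chain of the basement membrane network, from 14.9 and 14.4 CPM on D0 to 268, 544, 620, 575, 707 and 565 CPM (log2 fold change 5.11 ± 0.31 SE, adjusted p = 1.6e-06). All late pools lay above both D0 pools, as they did for 27.1% of all genes tested. COL8A1, a short-chain collagen of vessel walls and membranes, stood at 127 CPM against 25.2 (log2 fold change 2.24), and the fibril regulators COL5A1 and COL11A1 rose by 1.81 and 2.86. The common fibrillar chains COL1A2 and COL3A1 had log2 fold changes of 0.68 and 0.05 and did not pass. COL1A2 passed without the 2 pools (0.83) and against all D0 cells (1.17). With COL1A1 at 2000 CPM, COL1A2 had 0.17 and COL3A1 -0.76, and neither passed. COL3A1 was at 559 ± 117 CPM, near the 517 and 510 CPM of D0 and below the 1236 and 1690 CPM of D9.

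Of 18 enzymes that modify and cross-link collagen, 9 rose, 1 fell and 8 did not pass, with a median of 1.20, and 13 rose and 2 fell without the 2 pools. With COL1A1 at 2000 CPM 6 rose and none fell. The lysyl oxidase LOX, which cross-links collagen and elastin, stood at 224 ± 56.8 CPM against 91.2 and 93.9 on D0 (log2 fold change 1.18). PLOD2, a lysyl hydroxylase, rose by 1.91 and the collagen chaperone SERPINH1 by 1.57, although LOX and SERPINH1 did not pass once either D0 pool was left out. The member that fell was CRTAP, part of the prolyl 3-hydroxylation complex, with a log2 fold change of -0.62. This call was also lost without either D0 pool, and 7 times with 10 pools left out in turn.

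Among matrix glycoproteins and proteoglycans, 16 of 25 rose and 3 fell, with a median of 1.44, and 19 rose and 4 fell without the 2 pools. As 2 of the 25 reached the limit of a UMI in 5% of cells in late cells but not on D0, these could hardly fall. Fibronectin (FN1), the main adhesive glycoprotein of new matrix, had 250 and 253 CPM on D0 and 2240, 2728, 3371, 3335, 3340 and 3426 CPM in the late pools (log2 fold change 3.52 ± 0.16, adjusted p = 4.3e-07). FN1 was also higher than on D9, where it had 904 and 1104 CPM (log2 fold change 1.56, adjusted p = 0.00035), but the call against D9 did not hold without pool A of D9. Elastin (ELN), the rubber-like fibre protein of arteries and skin, rose from 5.96 and 5.87 CPM to 307, 304, 706, 381, 452 and 530 CPM. SPARC, a collagen-binding glycoprotein, rose by 2.31, TGFBI, a TGF-beta induced adhesion protein, by 3.48, and biglycan (BGN), a small proteoglycan, by 2.34. The small proteoglycans of resting dermis went the other way. Decorin (DCN) fell from 637 and 599 CPM on D0 to 97.7, 193, 104, 57.4, 46.3 and 64.7 CPM (-2.91 ± 0.23 on the log2 scale, adjusted p = 7.2e-06). Lumican (LUM) had 1341 and 1095 CPM on D0 and 715, 721, 827, 392, 305 and 295 CPM, a log2 fold change of -1.34 that did not pass without pool A of D0. All late pools of both genes lay below the D0 pools, as they did for 23.1% of all genes tested.

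Most genes of the contractile apparatus were higher than on D0. Of 20, 13 rose and 1 fell, with a median log2 fold change of 1.24, and without the 2 pools named above 17 rose and 2 fell. TAGLN, an actin-binding protein of smooth muscle, was at 284 and 277 CPM on D0, 2572 and 2880 on D9, and 5397, 4325, 7581, 3649, 7629 and 5596 CPM in the late pools (log2 fold change from D0 4.25 ± 0.31, adjusted p = 4.0e-06). ACTA2 (GRCh38, chromosome 10, 88935074 to 88991339, minus strand) had 117 and 109 CPM on D0, 772 and 888 on D9, and 2216, 1640, 3047, 1057, 2566 and 1589 CPM in the late pools (log2 fold change 4.08 ± 0.42, adjusted p = 3.2e-05). Both genes were above their D9 pools in all 6 late pools, as were 15.9% of all genes tested. Against D9 their adjusted p-values in edgeR of 0.027 (TAGLN) and 0.040 (ACTA2) missed the threshold. Both passed without the 2 pools (log2 fold changes 1.08 and 1.33), without either pool of D13 and in DESeq2. Most other alternatives left both short of the threshold. With COL1A1 at 2000 CPM neither passed, with log2 fold changes of 0.81 for TAGLN and 0.67 for ACTA2. Without pool A or pool B of D9 they were 0.96 and 1.05 for TAGLN and 1.18 and 1.30 for ACTA2. The tropomyosin TPM1 rose by 3.78 to 4767 ± 998 CPM, and the actomyosin regulator CALD1 by 1.62 to 5433 ± 1451 CPM. MYLK, the kinase that triggers smooth muscle contraction, was the member that fell (log2 fold change -0.90), from 189 and 193 CPM to 111 ± 32.1, after 28.9 and 30.0 CPM on D9, and this fall did not pass without either D0 pool.

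Actins of other muscle types appeared that were almost undetected in the starting fibroblasts. Cardiac actin (ACTC1) had 26 UMIs on D0 in both pools together, or 0.385 CPM, and 1030, 877, 1459, 743, 2059 and 1485 CPM in the late pools, 3314 times as much (95% interval from the D0 counts 2262 to 5073). POU5F1-high cells also lay far above D0, with 510, 352, 354, 176, 59.1 and 110.5 CPM of ACTC1. It was 2.02-fold higher in collagen-high cells in pool A of D11 and 34.8-fold higher in pool A of D15. ACTG2, the enteric smooth muscle actin, rose from 10.9 and 7.02 to 894 ± 335 CPM (log2 fold change 6.55), with 513 and 645 CPM already on D9. Skeletal actin (ACTA1) had 1 UMI on D0, and in the late pools 197, 76.6, 26.4, 31.7, 53.03 and 13.6 CPM. Unlike the other actins, ACTA1 was lower than in POU5F1-high cells in 5 of 6 pools. These genes have near-identical coding sequences, and reads could be split between them, so their separate levels are uncertain. Of 9 tested genes of mature smooth muscle, 7 rose and 2 did not pass, and without the 2 pools 8 rose and 1 fell. As 5 of the 9 reached the detection limit for the test (a UMI in 5% of cells) in late cells but not on D0, these could hardly fall. Desmin (DES), the muscle intermediate filament, rose from 1.10 and 1.05 CPM to 57.6 ± 25.7 (log2 fold change 5.61), the co-activator myocardin (MYOCD) by 3.88 to 19.97 ± 6.83 CPM, and smooth muscle myosin (MYH11) by 4.87, but only to 8.15 ± 4.11 CPM and without passing when pool B of D15 was left out.

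**Figure D3:**
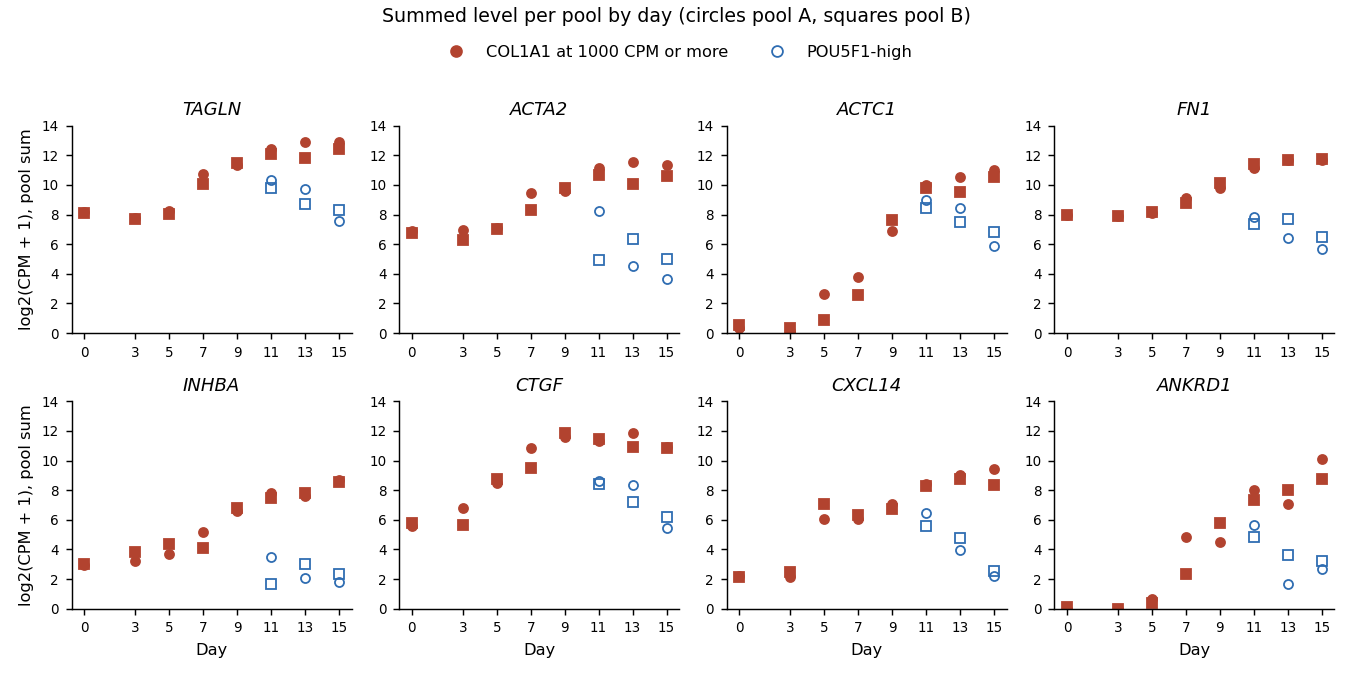
Level of 8 genes, as log2(CPM + 1) of UMIs summed per pool, by day, in cells with COL1A1 at 1000 CPM or more and CER1 below 200 CPM (filled) and in POU5F1-high cells of D11 to D15 (open); circles are pool A and squares pool B. TAGLN, ACTA2 and FN1 stay near their D0 level until D5 and rise from D7, and ACTC1 and ANKRD1 go from below 1 CPM on D0 to 1276 and 387 CPM on average in D11 to D15.

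Of 23 tested ligands, binders and targets of TGF-beta and activin, 13 rose, 2 fell and 8 did not pass, with a median of 1.57, and 15 rose and 3 fell without the 2 pools. As 3 of the 23 reached the detection limit in late cells but not on D0, these could hardly fall. INHBA (GRCh38, chromosome 7, 41667168 to 41705834, minus strand) encodes the beta A chain, 2 copies of which form activin A. It had 6.86 and 6.94 CPM on D0, 97.3 and 113 on D9, and 222, 180, 191, 221, 421 and 367 CPM in the late pools, where POU5F1-high cells had 10.1, 2.17, 3.27, 7.06, 2.45 and 3.96 CPM. The rise from D0 had a log2 fold change of 5.13 ± 0.23 (adjusted p = 4.0e-07) and that from D9 of 1.24 ± 0.17 (adjusted p = 0.003), which did not pass without pool A of D9, pool B of D9 or pool A of D15. Both D15 pools lay above the D11 and D13 pools, a difference between D15 and D11 (log2 fold change 1.01) that did not pass in edgeR, but passed in DESeq2. Without the 2 pools, where D11 rests on pool B alone, it was 1.19. The ligands TGFB1 and TGFB2 rose by 1.87 and 4.68, to 99.01 ± 29.5 and 41.7 ± 13.7 CPM. The activin binder FST rose by 1.57, to 150 ± 63.5 CPM. The BMP antagonist GREM1 rose by 2.27, from 35.2 and 42.3 to 201 ± 52.9 CPM. Of the pathway's targets, PMEPA1, a feedback inhibitor, rose by 4.88. The receptors differed in direction, with TGFBR1 rising by 1.14 and TGFBR2 and TGFBR3 falling by 1.25 and 3.91 on the log2 scale. The calls of TGFB1, TGFBR1 and TGFBR2 were lost without either D0 pool, and that of FST without pool A of D0.

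Of 17 tested targets of YAP and TEAD, the co-activator and DNA-binding partners that respond to cell tension, 4 rose, none fell and 13 did not pass, with a median of 0.18, and 6 rose and 2 fell without the 2 pools. In all 23.5% of the 17 passed, where 30.8% of all genes tested passed and 15.7% as higher. Of the 17, only ANKRD1 reached the detection limit in late cells but not on D0, and it could hardly fall. ANKRD1 and CTGF led the 4 that rose. ANKRD1, a cardiac ankyrin repeat protein that responds to stretch (GRCh38, chromosome 10, 90912096 to 90921087, minus strand), had 3 UMIs on D0 and 261, 165, 133, 256, 1080 and 426 CPM in the late pools, 8708 times the D0 level (95% interval 2980 to 42230, which covers the D0 counts only). Pool A of D15, which holds 29 cells, was the highest, and without it the mean was 248.1 CPM, 5586 times the D0 level. POU5F1-high cells were also above D0, with 49.3, 27.9, 2.19, 11.2, 5.32 and 8.36 CPM of ANKRD1. CTGF (now CCN2), a matrix-associated signalling protein, rose from 47.2 and 53.1 CPM to 2603, 2825, 3810, 1909, 1942 and 1859 CPM (log2 fold change 5.53 ± 0.29, adjusted p = 8.3e-07), with 3163 and 3777 CPM already on D9. GADD45B rose by 1.56 and CYR61 by 0.74, and neither passed without either D0 pool. The call of CYR61 was lost 8 times with 10 pools left out in turn.

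The 250 bases before the RefSeq start (build GRCh38.p14) are shown for ANKRD1 and CTGF (CCN2), as the strongest risers among these targets, and for the downstream start of ACTA2, all on the minus strand and written 5′ to 3′. Capitals mark GGAATG, the core of the site read by TEAD proteins.
ANKRD1, chr10:90921088-90921337: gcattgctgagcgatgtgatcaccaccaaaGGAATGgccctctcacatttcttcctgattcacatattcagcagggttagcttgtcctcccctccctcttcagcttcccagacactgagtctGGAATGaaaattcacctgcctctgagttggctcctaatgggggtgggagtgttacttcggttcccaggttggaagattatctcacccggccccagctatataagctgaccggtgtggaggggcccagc
CCN2, chr6:131951373-131951622: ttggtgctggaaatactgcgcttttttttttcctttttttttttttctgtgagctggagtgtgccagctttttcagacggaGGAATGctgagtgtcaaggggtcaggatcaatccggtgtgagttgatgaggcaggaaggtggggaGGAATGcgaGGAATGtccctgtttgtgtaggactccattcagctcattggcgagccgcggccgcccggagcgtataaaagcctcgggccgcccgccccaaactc
ACTA2, chr10:88952774-88953023: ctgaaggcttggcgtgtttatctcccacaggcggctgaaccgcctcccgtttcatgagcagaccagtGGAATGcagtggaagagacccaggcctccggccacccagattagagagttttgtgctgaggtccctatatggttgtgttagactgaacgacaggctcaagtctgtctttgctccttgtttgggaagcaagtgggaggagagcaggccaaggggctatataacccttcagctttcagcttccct
The motif was searched on both strands. It occurred 2 times before ANKRD1, 3 times before CCN2 and 1 time before this start of ACTA2, but not before its other start (88991338 to 88991587). It was found 1 time before 1 of 3 starts of ACTC1, and at least once in 11.9% of 35116 promoter windows of the same length. No GGAATG was found in the windows of INHBA and CXCL14. The AP-1 motif TGAGTCA, present in 4.2% of windows, occurred 1 time before CXCL14. The CArG box, the site of serum response factor, was found 2 times before ACTG2 and 1 time before 1 of 3 starts of ACTC1, against 1.16% of all windows. Only the strict form CCWWWWWWGG, with W for A or T, was searched. Forms that differ by 1 base were not counted, so the lack of a match before ACTA2 does not show that it has no such site. These are matches of letters and no measurement of binding.

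Secreted factors associated with senescent cells moved in both directions against D0, where 15 of 37 tested rose and 10 fell (18 and 14 without the 2 pools), and 8 of the 37 reached the detection limit in late cells but not on D0. CXCL14 (GRCh38, chromosome 5, 135570679 to 135579279, minus strand), a chemokine of epithelia and stroma, had 3.57 and 3.33 CPM on D0, 136 and 106 on D9, and 347, 318, 511, 429, 699 and 326 CPM in the late pools (log2 fold change from D0 6.89 ± 0.39, adjusted p = 1.2e-06). In POU5F1-high cells it had 87.3, 47.1, 14.6, 26.7, 3.56 and 4.88 CPM, so that it was 3.97-fold higher in collagen-high cells in pool A of D11 and 197-fold higher in pool A of D15. IGFBP3, a carrier of insulin-like growth factors, rose by 3.81 to 814 ± 218 CPM, and IGFBP7 by 1.41 to 2868 ± 1162 CPM, a call that was lost without either D0 pool. The carriers IGFBP4, IGFBP5 and IGFBP6 fell by 1.82, 1.47 and 3.55 on the log2 scale. SPP1 (osteopontin) rose by 8.06 from D0, to 153 ± 56.8 CPM, but was higher than in POU5F1-high cells in 2 of 6 pools only. The growth factor HGF was low, at 11.6, 29.0, 6.23, 7.28, 5.23 and 7.56 CPM, against 22.3 and 19.8 on D0 and 33.1 and 26.3 on D9. Its falls of 1.19 and 1.66 on the log2 scale passed, and both were lost without either pool of the control day. Both calls were also lost without either pool of D15, and 6 times each with 10 pools left out in turn. NRG1, a ligand of ERBB receptors, had 12.4 ± 1.90 CPM, while the receptor ERBB3 had 4.17 CPM in collagen-high and 23.0 CPM in POU5F1-high cells. MET, the receptor of HGF, had 5.004 and 3.21 CPM.

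D9 was the first sampled day after the last transfection. In the comparison with D9, 2.93% of 13086 genes passed, 180 higher (1.38%) and 204 lower (1.56%), and the share was 25.1% without pool A of D11 and pool B of D13. Of the 37 secreted factors 13 fell, 1 (CXCL14) rose and 23 did not pass, and without these pools 20 fell and 4 rose. All 37 reached the detection limit on D9 but only 34 in late cells, so the rest could hardly rise. The neutrophil chemokine CXCL8 had 277 and 108 CPM on D9 and 1.98, 26.4, 0.616, 4.92, 0 and 12.4 CPM in the late pools. CXCL1 fell from 1062 and 602 CPM to 27.9, 133, 34.2, 32.3, 17.2 and 111 CPM (log2 fold change -3.94 ± 0.52, adjusted p = 0.0022). The cytokine IL1B and the stromelysin MMP3 fell by 4.18 and 3.27. CXCL6, a further neutrophil chemokine, fell by 4.42 from 104 and 42.5 CPM. The largest fall from D9 was in UMIs assigned to AES (TLE5), which encodes a corepressor of the Groucho family. They stood at 138 and 160 CPM on D0, 5465 and 7412 on D3, 7463 and 8309 on D9, and 424, 499, 162, 109, 128 and 87.4 CPM from D11 on (log2 fold change from D9 -5.43 ± 0.17, adjusted p = 1.15e-07), so its high level spanned the sampled days from D3 to D9, beside transfections on days 1 to 8. Whether these UMIs came from the gene or from transfected RNA was not tested. The acute-phase protein PTX3 fell by 4.18 and the tight junction protein CLDN11 by 3.82.

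Among genes at 50 CPM or more, rises from D9 were led by MMP11, a stromelysin of remodelling stroma (4.22), the hyaluronan link protein HAPLN1 (4.20), the hair keratin KRT81 (3.38) and KISS1, the kisspeptin precursor (3.18). MMP11 had 2.35 and 4.67 CPM on D9 and 25.7, 58.4, 145, 34.2, 48.6 and 105 CPM later. ANKRD1 and ACTC1 followed with 3.05 and 2.92. Of 9 smooth muscle genes 5 were higher than on D9, among them MYH11 (4.52), KCNMB1 (2.59) and MYOCD (1.88), and of the 20 contractile genes 4 rose, including MYLK (1.83). All 9 smooth muscle genes reached the detection limit in late cells but only 6 on D9, so the rest could hardly fall. The same holds for 25 pluripotency genes, of which all reached it in late cells and 20 on D9. Without pool A of D11 and pool B of D13, 7 smooth muscle and 13 contractile genes rose, and with COL1A1 at 2000 CPM, where 2.28% of all genes passed, 2 and 3 did. None of 28 proliferation genes and none of 25 pluripotency genes passed in edgeR, but without these 2 pools 22 proliferation genes fell, and 10 pluripotency genes rose and 5 fell. Calls against D9 leaned on its 2 pools, since 11 genes in all passed without pool A of D9 and 27 without pool B. Of the 26 named genes that passed, AES, CLDN11, CXCL6 and PTX3 passed without either pool, and the other genes named here as higher or lower than on D9 did not pass without at least 1 of them.

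**Figure D4:**
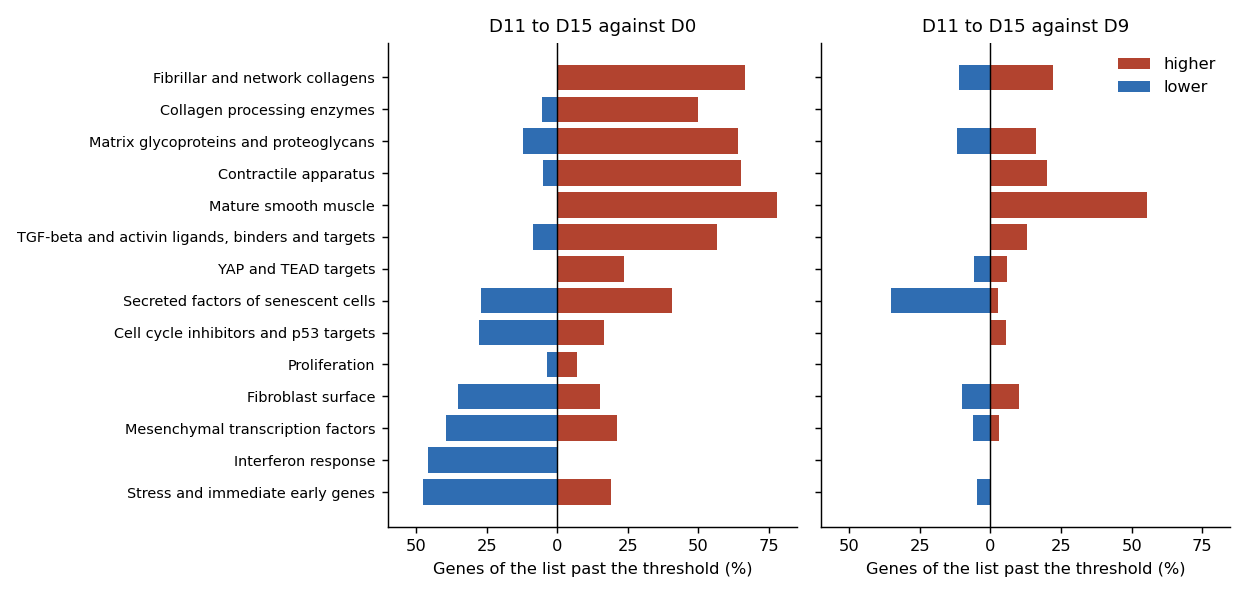
Percentage of the tested genes of 14 groups that passed the threshold as higher (right) or lower (left) in collagen-high cells of D11 to D15 than in cells of D0 (left panel) or D9 (right panel) taken by the same rule. Matrix, contractile and TGF-beta genes extend to the right against D0, with 12 of 18 collagens higher. Smooth muscle and interferon genes, among others, were partly bound to 1 direction by the detection limit. Secreted factors extend to the left against D9, with 13 of 37 lower.

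Part of the starting fibroblast programme was low in the collagen-high cells. OSR2, a transcription factor of dermal and limb mesenchyme, fell from 424 and 410 CPM on D0 to 8.78, 11.8, 8.00, 4.21, 3.73 and 5.44 CPM (log2 fold change -6.03 ± 0.23, adjusted p = 3.6e-07), and it was already at 36.9 and 24.6 CPM on D3. TWIST2 fell by 3.18, from 618 and 646 to 82.2 ± 45.3 CPM. Of 33 tested mesenchymal transcription factors, 13 fell and 7 rose (17 and 8 without the 2 pools, 12 and 4 with COL1A1 at 2000 CPM). Of the 33, 3 reached the detection limit in late cells but not on D0, and 1 on D0 but not in late cells. Among those that rose was MEOX1, a homeobox factor of somites, with 2 UMIs on D0 and 22.0 ± 12.8 CPM later. PRRX1 did not pass (log2 fold change -0.52, adjusted p = 0.045), but passed as lower without the 2 pools (-0.58). Of 20 surface and structural genes of fibroblasts, 7 fell and 3 rose (7 and 6 without the 2 pools). The intermediate filament vimentin (VIM) fell from 10037 and 10960 to 3762 ± 1214 CPM, and the calcium-binding S100A4 from 6638 and 6192 to 1630 ± 483 CPM. PDGFRA, a receptor of platelet-derived growth factor, fell by 3.07, while the collagen-binding integrin ITGA11 rose by 4.08. Further large falls were those of SLC38A11 (5.28), KLF4 (5.22), ADIRF (4.92) and PTX3 (4.91). KLF4 was among the transfected factors and stood at 1.98 ± 1.09 CPM against 58.6 and 69.9 CPM on D0.

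Of 24 interferon-stimulated genes, 11 fell from D0, 13 did not pass and none rose, with a median of -1.34, and without the 2 pools 16 fell and 1 rose. As 8 of the 24 reached the detection limit on D0 but not in late cells, these could hardly rise. IFI6 fell by 2.57, from 191 and 158 to 31.1 ± 7.75 CPM, and OAS1, a sensor of double-stranded RNA, from 4.98 and 3.95 to 0.185 CPM. Against D9 none of the 24 passed in edgeR, and without the 2 pools 3 rose and 5 fell. Of 21 stress and immediate early genes, 10 fell, 4 rose and 7 did not pass (12 fell and 5 rose without the 2 pools). As 1 of the 21 reached the detection limit in late cells but not on D0, it could hardly fall. FOS fell from 449 and 502 to 63.6 ± 26.6 CPM.

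The collagen-high cells held less RNA for cell division than the POU5F1-high cells. After thinning each cell to 5000 UMIs, 12.4% of collagen-high cells and 56.3% of POU5F1-high cells had a UMI of the cycle genes MKI67 or TOP2A (means over 6 pools), and the share was lower in collagen-high cells in 6 of 6 pools. It was 17.2% and 19.7% in collagen-high cells of pool A of D11 and pool B of D13, and 3.56 to 13.8% in the other 4 pools. Cells of D0 and D9 taken by the same rule had similar shares, 11.11% and 14.71% on D0 and 9.09% and 9.84% on D9. Without thinning the shares were 45.7% and 95.8%. The collagen-high cells were shallower, with a mean of pool medians of 35453 UMIs against 51597. Of 28 proliferation genes, none was 2-fold higher and 26 were 2-fold lower than in POU5F1-high cells in all 6 pools, where 11.8% of all 13865 genes compared were so. MKI67 had 18.3, 21.7, 5.31, 16.5, 5.23 and 16.3 CPM against 42.3, 57.6, 39.6, 59.2, 90.8 and 81.5 CPM. D0 fibroblasts had 26.5 and 37.2 CPM, and against D0 2 proliferation genes rose, 1 fell and 25 did not pass. Without pool A of D11 and pool B of D13, 7 rose and 11 fell. Against all D0 cells, whatever their COL1A1, 1 rose and 10 fell, and the median log2 fold change was -0.76 in place of 0.27. With COL1A1 at 2000 CPM 2 rose and none fell, with a median of 1.14. Of 18 cell cycle inhibitors and p53 targets, 3 rose, 5 fell (CDKN1A, CDKN1B, CDKN2C, MDM2 and BTG2) and 10 did not pass against D0, with a median of -0.48, and 4 rose and 10 fell without the 2 pools. As 1 of the 18 reached the detection limit in late cells but not on D0, it could hardly fall. The cell cycle inhibitor CDKN1A (p21) had 195 ± 50.8 CPM against 356 and 362 on D0, and CDKN2A 179 ± 58.9 against 81.2 and 90.5. Their log2 fold changes of -0.97 and 0.97 passed, and neither passed without either D0 pool. With 10 pools left out in turn, the call was lost 7 times for CDKN1A and 8 times for CDKN2A. CDKN2B (p15) rose by 2.73, from 7.45 and 7.85 to 54.5 ± 16.8 CPM. The third gene of the list to rise, by 6.11, was CCND2, which is a cyclin and no inhibitor.

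The summed level of 29 pluripotency genes was 241.1 to 1350 CPM in the late pools and 43.85 and 45.73 CPM on D0, and that of 24 epithelial genes 919.6 to 2076 CPM against 555.2 and 583.9 CPM. Of those tested, 22 of 25 pluripotency and 13 of 20 epithelial genes reached the detection limit in late cells but not on D0 and could hardly fall, so that their counts of rises are not given as a result. LIN28A, an RNA-binding protein, was at 0 UMIs on D0, and at 73.1, 16.2, 10.9, 184, 51.5 and 58.4 CPM later, at least 1479-fold higher on average (against 3 UMIs over both D0 pools) and at least 946-fold without pool B of D13. SOX2 had 1 UMI on D0 and 19.5, 4.24, 3.77, 43.5, 13.4 and 28.4 CPM. Both genes were highest in pool B of D13, and both are among the 21 pluripotency genes whose median was highest in that pool. All 29 pluripotency genes with a value were 2-fold lower than in POU5F1-high cells in 6 of 6 pools, a direction that the choice of cells favours. Whether this RNA came from other cells or from the collagen-high cells was not tested. The epithelial keratins differed from that pattern. KRT18 had 985, 390, 761, 594, 769 and 971 CPM in collagen-high cells and 2329, 1985, 1351, 624, 578 and 722 CPM in POU5F1-high cells. It was lower in collagen-high cells in both D11 pools and higher in both D15 pools. A class difference that depends on the day passed for 0 of 13865 genes in edgeR, so this turn did not pass. On D0 KRT18 had 48.2 and 45.3 CPM (log2 fold change from D0 3.91). KRT8 was similar, at 389 ± 140 CPM. EPCAM, a surface protein of epithelia and pluripotent cells, stayed at 28.4 ± 15.0 CPM against 291 in POU5F1-high cells.

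In the contrast that chose the cells, 70.7% of 13865 genes passed the threshold, which carries no information beyond the choice. Among genes at 50 CPM or more, the largest log2 fold changes over POU5F1-high cells were those of FILIP1L, PRRX1, DCN, COL8A1, LUM and POSTN (periostin). FILIP1L, a regulator of filamin, had 128 ± 35.0 against 2.00 CPM, and POSTN 238 ± 38.7 against 4.70 CPM. The lowest ratios were those of 3 noncoding RNAs (RP11-1144P22.1, RP11-132A1.3 and FOXD3-AS1) and SOX2, SCG3 and TDGF1. Of 18 collagens 15, of 20 contractile genes 17 and of 25 matrix genes 21 were 2-fold higher in all 6 pools, where 14.1% of all genes were so. Among the 2060 genes that rose from D0, 495 were 2-fold higher and 354 were 2-fold lower than in POU5F1-high cells in 6 of 6 pools. These were 24.03% and 17.18% of them, where 14.1% and 11.8% of all 13865 genes compared were so, and among the 1967 genes that fell from D0 469 (23.84%) were 2-fold higher and 45 (2.29%) 2-fold lower. The smooth muscle actin ACTG2 was higher in collagen-high cells in 6 of 6 pools, while the metallothionein MT1H was lower in 6 of 6 pools. MT1H had 136, 23.8, 19.3, 212, 42.6 and 38.7 CPM, and it has close relatives between which reads could be split. The difference between the classes passed as dependent on the day for 0 of 13865 genes (D15 against D11 and D13 against D11 in edgeR, with 1699 and 876 genes at an unadjusted p below 0.05).

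Few genes passed between days within the collagen-high cells, which does not show that the days are alike. Of 13086 genes, 2 passed for D15 against D11 (0.0153%), 2 for D13 against D11 and 0 for D15 against D13, while 1488, 1035 and 1533 genes had an unadjusted p below 0.05 and DESeq2 called 82, 36 and 33. Without pool A of D11 and pool B of D13, 483 genes passed for D15 against D11. TMEM158, a membrane protein induced by RAS signalling, had 72.7 and 142 CPM on D11, 12.8 and 13.4 on D13, and 8.22 and 11.5 on D15. Its log2 fold change was -3.35 for D15 and -3.00 for D13 against D11. The antisense RNA CDKN2B-AS1 rose from 1.56 and 1.52 on D11 to 18.7 and 17.5 CPM on D15, but its locus overlaps CDKN2B, and reads of the pair may be mixed. NR4A2, an immediate early nuclear receptor, fell on D13 only, to 0.693 and 0.714 CPM from 7.498 and 12.5, and was at 8.22 and 10.6 CPM on D15.

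Single cells of the group differed more in some markers than in others. COL1A1 ranged from 1327 CPM at the 10th percentile to 11120 CPM at the 90th, with a median of 3995, over all 2668 cells. ACTA2 had a median of 930.8 CPM, and 1295 cells (48.5%) reached 1000 CPM, between 35.7% in pool B of D13 and 72.4% in pool A of D15. TAGLN reached 1000 CPM in 83.2% of cells. INHBA did so in 2.51%, and its median was 102 CPM. CXCL14 and ANKRD1 were unevenly spread, with medians of 30.2 and 23.6 CPM but a 90th percentile of 940 and 574 CPM. In pool A of D11, 94.6% of the cells had a CXCL14 UMI, against 30.9 to 58.4% in the other 5 pools, and the POU5F1-high cells of that pool also had the highest CXCL14 level. Of all members 9.56% reached 1000 CPM of CXCL14, between 5.92% and 13.8% by pool.

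**Figure D5:**
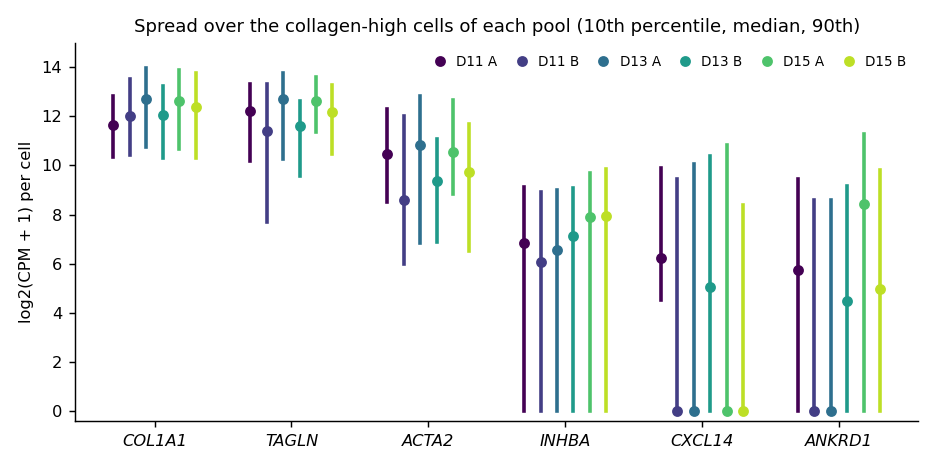
Spread of 6 genes over the collagen-high cells of each pool, as log2(CPM + 1) per cell; points are medians and lines run from the 10th to the 90th percentile. COL1A1 has a lower limit set by the rule, TAGLN and ACTA2 have medians well above 0 in every pool, and CXCL14 and ANKRD1 have medians at or near 0 in several pools beside a 90th percentile far above.

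Rank correlations over cells, computed within each pool after thinning to 5000 UMIs, describe which markers occurred in the same cells. They are given as medians over 6 pools, cells of a pool share a library, and sparse counts weaken them. ACTA2 and TAGLN went together (0.718, range 0.650 to 0.796), as did COL1A1 and COL1A2 (0.782). COL1A1 had 0.044 with ACTA2 (range -0.305 to 0.141), 0.293 with INHBA, -0.157 with CXCL14 and -0.165 with ANKRD1. As COL1A1 chose the cells, its range is cut off at 1000 CPM, which can change its correlations. A value near 0 among these cells does not show that the genes are unrelated. ACTA2 had 0.498 with IGFBP7 and 0.345 with ANKRD1. At the limit itself, 221 cells lay just outside, with 800 to 1000 CPM of COL1A1, and 172 just inside, with up to 1200 CPM. ACTA2 had medians of 813 and 768 CPM in them and TAGLN 3797 and 3360 CPM. In the 1333 members at 4000 CPM of COL1A1 or more, INHBA had a median of 179 CPM, against 22.0 CPM in the cells just inside the limit, while the median of ANKRD1 was 0 against 52.9 CPM. These bands put the cells of all 6 pools together. Pools differed in COL1A1 and ANKRD1, and the part of this contrast that lies between pools was not tested. Cells just outside and just inside the limit thus had similar levels of ACTA2, TAGLN and INHBA (25.4 and 22.0 CPM).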

How the data were processed

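The authors deposited gene by cell matrices of UMI counts (10x 3′ v2), made with Cell Ranger 2.2 on GRCh38 according to the submitters' processing notes, and no other values were used. The 22 libraries hold 44197 barcodes and 33694 genes in 16 pools of 8 days. Cells with fewer than 1000 genes or over 10% of UMIs on mitochondrial genes were left out. UMIs were summed per pool and class, and sums had totals of 1338783 to 42049081 UMIs for collagen-high cells of D0 and D11 to D15. Genes with a UMI in 5% of cells of a class were tested on these sums with edgeR's quasi-likelihood test (TMM, two-sided, Benjamini-Hochberg). A gene passed with a change beyond 0.25 on the log2 scale and an adjusted p of less than 0.01. The contrast of both classes had the pool as a block, and D0, D9, D11, D13 and D15 shared one fit without a block. Each pool held cells of 4 chips that the methods call independent. Whether pools of a day were started separately is not given in the sources used here, so p-values measure the spread between these pools.

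Doublet scores came from scrublet in scanpy, per library, and called doublets were kept. The caller marked 0.809% of cells, and leaving out the highest 5% of scores was an alternative. Cells were thinned to 5000 UMIs for shares and rank correlations, and none of the 2668 members was shallower. Exact binomial intervals and counts of D0 UMIs cover counting error only. Named genes were, for each comparison, the 6 largest rises and falls among genes that passed with 50 CPM or more and no overlap between pools, up to 4 members with the highest level in each gene list, and the markers and ligands followed by the study. Other list members and the gene pairs of the rank correlations were named after their values were seen. Members, lists and tests were chosen with earlier results of these data known. The search for the CArG box, the set of 48 genes examined for pools that stand apart, the use of all D0 cells and the removal of pool A of D11 and pool B of D13 were added after seeing the data. Promoters are from RefSeq (GRCh38.p14) and gene positions from GENCODE.

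The tests were tried on simulated counts. These had the same spread for every gene and no pools that stood apart, and genes with few counts were not changed. The shares recovered need not hold for the real pools. For the contrast of both classes, 190 of 200 changed genes among 13865 were recovered (40 of 50 at 2-fold and 50 of 50 at 4-fold), and for D11 to D15 against D0, 164 of 200 among 13086 (14 of 50 at 2-fold and 50 of 50 at 4-fold). Alternatives covered DESeq2, its size factors, gene and cell filters, the COL1A1 limit, doublets, the block, thinning and each pool left out. Software was R 4.3.3, edgeR 4.0.16, DESeq2 1.42.0, Python 3.11.15, scanpy 1.11.5, scipy 1.17.1 and matplotlib 3.10.9.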

Additional observations from a re-analysis of the deposited data

Results flagged for a closer look

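In 7 of 48 genes examined, 1 of the 6 pools of collagen-high cells lay further from the others than Dixon's 95% limit. Chance alone puts about 1 in 20 groups there only if the values are alike and normally spread. Here the pools came from D11, D13 and D15, and the genes shared pools and were chosen after seeing the data. The count is therefore not compared with that rate. Skeletal actin ACTA1 was highest in pool A of D11 (197.08 CPM, next 76.6). ANKRD1 was highest in pool A of D15 (1080.1 CPM, next 426.39), a pool of 29 collagen-high cells. LIN28A was highest in pool B of D13 (183.94 CPM, next 73.1), where collagen-high cells held the most pluripotency RNA. Pool B of D11 was highest for HGF (29.022 CPM, next 11.6), PTX3 (17.198 CPM, next 6.07) and KLF4 (4.0782 CPM, next 2.24). CDKN2A was highest in pool A of D13 (291 CPM, next 189.59). The cause of these values was not tested.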

How the results depend on the processing

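Counts of genes that passed depended on the pools. Against D0 (4027 genes) the count was 6042 without a gene filter, 2624 with COL1A1 at 2000 CPM and 6960 without pool A of D11 and pool B of D13, and it ranged from 1581 (without pool B of D0; 1661 without pool A) to 5626 with each pool left out. Against D9 (384) it was 1247 with DESeq2, 2004 without a gene filter and 3280 without the 2 pools, and 11 (without pool A of D9; 27 without pool B) to 2924 (without pool A of D13; 1196 without pool B) with each pool left out, with 118 and 122 without pool A or B of D15, 214 without pool A of D11 and 199 without either D0 pool. For D15 against D11 (2) it was 82 with DESeq2, 267 without a gene filter, 0 with genes in 5% of all kept cells, 14 and 1 with COL1A1 at 500 and 2000 CPM, 1 with stricter cells and 483 without the 2 pools, and 0 to 28 with each pool left out. The difference between classes by day (0) gave 176 (D15) and 10 (D13) genes without a gene filter and 3 (D15) with stricter cells. The cause was not tested. Mean shares were 34.875% on D11 and 8.8265% on D15 with COL1A1 at 500 CPM, 19.905% on D11 at 2000 CPM and 13.36% on D15 with stricter cells, and the share with MKI67 or TOP2A was 20.498% at 10000 UMIs and 45.711% without thinning. CXCL6 against D0 turned from 2.58 to -0.1199 on the log2 scale without pool B of D15, and ranged up to 2.7633 with each pool left out. Of the values of single named genes under all alternatives, 2189 kept direction and side of the threshold, 248 kept direction but no longer passed and 1 reversed, and 57 of 86 named genes against D0 and 4 of 26 against D9 passed with every pool left out in turn.

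Pools with the same letter were not paired. Their deviations from the day means had correlations of -0.276 to 0.158 over 10 pairs of days (median 0.00639). With the letter as a replicate block 3788 genes passed against D0, 281 against D9 and 2 for D15 against D11, and without the pool block 7913 in place of 9808 passed between the classes. Depth limits pool A of D15 most, with 1338783 UMIs in 29 cells.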

Other observations

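Of 8 tested endothelial and pericyte genes, 3 of which reached the detection limit in late cells but not on D0, 4 rose and 2 fell against D0 (6 and 2 without pool A of D11 and pool B of D13, 1 and 2 with COL1A1 at 2000 CPM). A further 1 of the 8 reached the limit on D0 but not in late cells and could hardly rise. The pericyte potassium channel subunits ABCC9 and KCNJ8 fell to 0.420 and 1.70 CPM, while MCAM, an adhesion protein of vessel walls, rose to 18.6 ± 4.95 CPM, between 10.1 and 23.8 by pool. NOTCH3, a receptor of mural cells, had 30.3 ± 5.79 CPM against 12.04 and 14.1 on D0 (log2 fold change 1.12). The calls of KCNJ8, NOTCH3, KRT7 and GATA6 against D0 were lost without either D0 pool. That of KRT7 was lost 8 times with 10 pools left out in turn. Of 12 trophoblast and amnion genes, 5 of which reached the detection limit in late cells but not on D0, 5 rose and 4 fell (6 and 4 without these pools, 2 and 3 with COL1A1 at 2000 CPM). Their summed level was 656.5 to 1410 CPM (median 988.5) in the 6 pools of collagen-high cells, 217.6 and 230 CPM on D0, and had a median of 172.2 CPM in POU5F1-high cells. IGFBP3, which is also among the secreted factors, made up 505 to 1182 CPM of it. The placental hormone CSH1, whose close relative CSH2 could share its reads, had 1 UMI on D0 and 53.5, 22.6, 1.62, 6.92, 0 and 3.93 CPM in the late pools, and was higher in POU5F1-high cells in 6 of 6 pools (mean 103 CPM). GATA2, a transcription factor of trophoblast and blood, fell to 2.82 ± 1.00 CPM from 23.6 and 23.7. The simple epithelial keratin KRT7 rose to 103 ± 37.0 CPM and was higher than in POU5F1-high cells in 6 of 6 pools. Of 11 tested mesendoderm genes 7 reached the detection limit in late cells but not on D0 and could hardly fall, and the summed level of all 19 was 101.3 to 392.9 CPM against 260.1 and 262 CPM on D0. GATA6, a factor of endoderm, was at 1.77 ± 0.841 CPM and 1.45 CPM in POU5F1-high cells. Of 5 neural genes 1 rose and 2 fell (2 and 2 without the 2 pools). Of these 5, 2 reached the detection limit in late cells but not on D0 and could hardly fall. A further 1 reached it on D0 but not in late cells and could hardly rise. STMN2, a microtubule-regulating protein, fell from 174 and 183 to 33.6 ± 11.3 CPM, and the other gene that fell was the glial filament gene GFAP. The gene that rose was MAP2, a microtubule protein of neurons, to 11.8 ± 3.77 CPM from 1.33 and 1.43.

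Growth factors outside the groups above were also measured. The cytokine LIF, which supports mouse stem cells, had 7.002 ± 3.85 CPM against 0.520 in POU5F1-high cells, and IGF2, a growth factor of the embryo, 34.6 ± 13.5 against 2.13 CPM. Both were higher in collagen-high cells in 6 of 6 pools and rose from D0 (log2 fold changes 3.75 and 1.21), although IGF2 did not pass without either D0 pool, and neither passed against D9.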
